A study of Oryza sativa with 12 samples.

Results

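RTS, RAFTIN1 and OsC6 are genes of the tapetum, the innermost layer of the rice anther wall, and their transcripts were followed in wild-type and nup1 mutant anthers. The 3 genes were chosen by name, as the loci LOC_Os01g70440 (RTS, chromosome 1), LOC_Os08g38810 (RAFTIN1, chromosome 8) and LOC_Os11g37280 (OsC6, chromosome 11). All 3 appear in both deposited tables, which hold 3453 genes at anther stage 10 and 5084 at stage 11, with 1450 genes in both. Anthers of each genotype were collected at each stage as 3 biological replicates, so there are 4 groups and 12 libraries of poly(A) RNA. The labels give no background variety, no growth condition and not the locus mutated in nup1, and no targeted gene was checked. The tables list only genes that the authors had called different between the genotypes, so the presence of the 3 genes in them is not a result here. The tables give locus identifiers without symbols. The RefSeq gene table holds each of the 3 symbols on the chromosome of its locus, which is a check of the chromosome and not of the locus.

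The tapetum feeds the developing microspores and secretes the material of the pollen wall. In rice it carries Ubisch bodies (orbicules), small bodies on its inner face that are thought to carry sporopollenin, the resistant polymer of the outer pollen wall or exine, towards the microspores. At the stages sampled here the microspores enlarge around a vacuole and then enter their first mitosis, while the tapetum is being broken down. RTS is an anther-specific gene of the tapetum that rice needs for male fertility. RAFTIN1 encodes a BURP-domain protein found on Ubisch bodies and the exine. OsC6 encodes a lipid transfer protein of the anther locule, Ubisch bodies and exine, and is a known target of the bHLH factor TDR.

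Levels are given in FPKM, a count of fragments scaled by the length of the transcript and by the mapped fragments of the library, with the SD over n = 3 libraries. Because of the scaling by length, levels of different genes can be set side by side. A change is the difference of mean log2(FPKM + 1), nup1 minus wild type, with its SE. A gene passed with limma at an adjusted p under 0.01 and a fold over 2. Depth in fragments is unknown. Whole anthers were sampled, so fewer tapetal cells and less RNA per cell cannot be told apart.

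At stage 10 all 3 genes were among the most abundant listed transcripts of wild-type anthers, and all 3 fell in nup1. RTS had the largest fall of the 3, to between 1.48 and 40.3 FPKM, while RAFTIN1 and OsC6 stayed at 321 FPKM or more in every nup1 library. All 3 passed the threshold, where 33.1% of the 3358 genes fitted passed as lower. In each of the 3, every nup1 library lay below every wild-type library, which was so in 42.0% of the genes fitted. The authors' deposited table lists all 3 as lower, as it does 43.8% of its genes.

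RTS stood at 2759, 6687 and 4223 FPKM in wild-type replicates 1, 2 and 3. In nup1 it stood at 3.79, 40.3 and 1.48 FPKM. The lowest wild-type library was 68.4 times the highest nup1 library, and nup1 replicate 2 was well above the other nup1 libraries. The means were 4557 ± 1985 and 15.2 ± 21.8 FPKM, a ratio of 299.8 (log2 change -9.08 ± 0.89 SE, adjusted p = 5.98e-05). Only 1 of the genes fitted at stage 10 had a more negative change. That rank depends on the added 1 FPKM, which limits the falls of less abundant genes. With 0.1 FPKM added instead, LOC_Os02g04210 went from -8.19 to -9.71, past RTS at -9.41. Within nup1 the highest RTS value was 27.3 times the lowest, so the size of the fall depends on the library: the change was -10.28 without nup1 replicate 2. Wild-type replicate 2, the highest in RTS, differed over 2-fold from both other wild-type replicates in 8.43% of the genes fitted, and the change was -8.76 without it.

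OsC6 stood at 7243, 7194 and 6535 FPKM in wild type and at 794, 934 and 691 FPKM in nup1. The replicates of each group lay close together, and the lowest wild-type library was 7.00 times the highest nup1 library. Wild type averaged 6991 ± 395 FPKM and the mutant 807 ± 122 (log2 change -3.12 ± 0.29, adjusted p = 4.88e-05). In wild type OsC6 ranked between 1 and 3 among the listed genes in every library.

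RAFTIN1 stood at 2342, 2588 and 1763 FPKM in wild type and at 321, 427 and 382 FPKM in nup1. The groups were 4.13-fold apart at their nearest libraries. The means were 2231 ± 423 and 377 ± 53.4 FPKM, 5.93-fold apart (log2 change -2.56 ± 0.29, adjusted p = 0.000117). RAFTIN1 ranked from 9 to 12 among listed genes in the wild-type libraries and from 43 to 65 in the nup1 libraries.

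Summed over the 3 genes, wild-type libraries held 12343 to 16470 FPKM, or 8.28% to 9.02% of the FPKM of all listed genes. The nup1 libraries held 1074 to 1402 FPKM, or 0.784% to 1.16%. All 3 genes were highest in replicate 2 among the nup1 libraries.

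**Figure D1:**
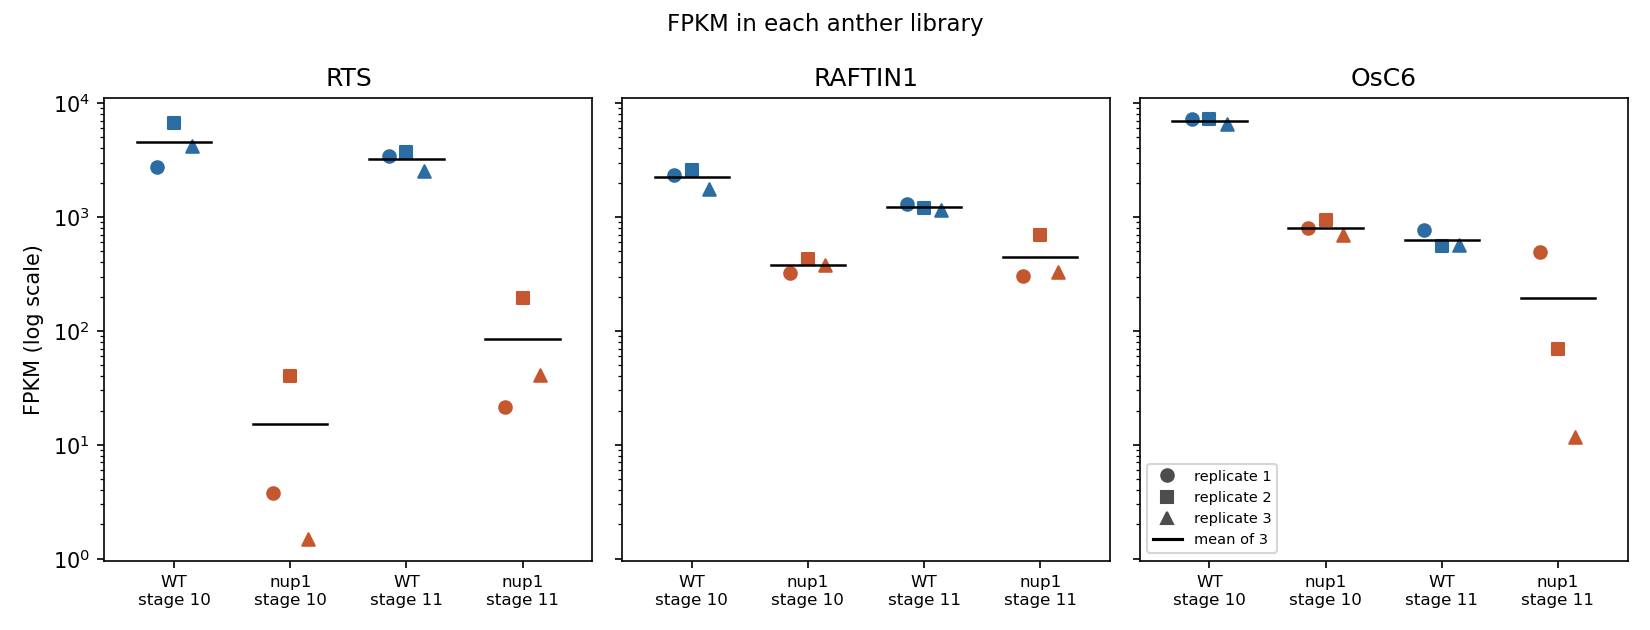
FPKM (log axis) of RTS, RAFTIN1 and OsC6 in each of the 12 libraries, with the mean of 3 libraries as a bar and the replicate number as the symbol. Wild type lies above nup1 at both stages for each gene, from a 68.4-fold gap between the nearest libraries for RTS at stage 10 to a 1.12-fold gap for OsC6 at stage 11.

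At stage 11 RTS and RAFTIN1 were again lower in nup1 and passed, while OsC6 was lower on average but did not pass. The 2 genes that passed compare with 46.0% of the 4992 genes fitted that passed as lower. In FPKM, every nup1 library lay below every wild-type library for each of the 3 genes, which was so in 57.6% of the genes fitted. By rank among the listed genes this did not hold for RAFTIN1 and OsC6. The authors' deposited table lists all 3 as lower, as it does 59.0% of its genes.

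RTS stood at 3457, 3697 and 2533 FPKM in wild type and at 21.6, 193 and 40.7 FPKM in nup1. Replicate 2 was again the highest nup1 library, and the nearest libraries of the 2 genotypes were 13.1-fold apart. The means were 3229 ± 615 and 85.0 ± 93.8 FPKM, 38.0-fold apart (log2 change -5.81 ± 0.71, adjusted p = 0.000312). RTS ranked from 3 to 5 among the listed genes in wild type and from 105 to 1411 in nup1.

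RAFTIN1 stood at 1297, 1210 and 1151 FPKM in wild type and at 306, 699 and 328 FPKM in nup1. As with RTS, replicate 2 was the highest nup1 library, and it came within 1.65-fold of the lowest wild-type library. Among the listed genes RAFTIN1 ranked 15 in that library, inside the wild-type range of 14 to 20. The means were 1219 ± 73.2 and 444 ± 221 FPKM, 2.74-fold apart (log2 change -1.56 ± 0.32, adjusted p = 0.00254). It no longer passed when wild-type replicate 1 was left out (-1.51, adjusted p = 0.0102), nor when nup1 replicate 3 was (-1.39, adjusted p = 0.0107). The same happened under median centring (-1.12), quantile normalization (-0.67) and scaling to the actin gene ACT1 (-0.35), which was itself lower in nup1.

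OsC6 stood at 767, 555 and 569 FPKM in wild type and at 496, 70.1 and 11.6 FPKM in nup1. The nup1 libraries spread 42.6-fold, with replicate 1 just below the lowest wild-type library and replicate 3 far below it. In nup1 replicate 1 OsC6 ranked 22 among the listed genes, against 31 to 42 in wild type. Its share of the listed FPKM there, 0.335%, lay inside the wild-type range of 0.263% to 0.337%. Wild type averaged 630.4 ± 119 FPKM and the mutant 193 ± 264 (log2 change -3.03 ± 1.15, adjusted p = 0.0347). Without nup1 replicate 1 the change was -4.38 ± 0.67 and passed (adjusted p = 0.00106), and without nup1 replicate 3 it was -1.73 ± 0.77 and did not (adjusted p = 0.0671). With all libraries the 95% confidence interval ran from -5.73 to -0.33.

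The nup1 library that was high in OsC6 at stage 11 was not the one that was high in RTS and RAFTIN1. Nup1 replicate 1 differed over 2-fold from both other nup1 replicates in 7.63% of the genes fitted, the other nup1 replicates in 2.80% and 3.15%. In replicate 1 the fatty acid hydroxylase CYP704B2, named after its values were seen, stood at 90.6 FPKM, against 0.973 and 1.45 in nup1 replicates 2 and 3. The proteases of tapetal cell death listed there were also highest in that library: AP25 stood at 68.6, 7.33 and 3.27 FPKM in nup1 replicates 1 to 3, and CP1 at 6.81, 0.0495 and 0.652. The bHLH factor EAT1 stood at 8.24, 1.60 and 0.673 FPKM and TDR at 44.7, 30.1 and 17.3 FPKM, both in the order seen for OsC6. The sugar transporter MST8, at 2.02, 11.6 and 6.43 FPKM, was in the order seen for RTS, lowest in replicate 1 and highest in replicate 2. MST8 had the highest correlation with RTS over these same libraries, so its order is not a separate result. The hexokinase HXK5 (29.0, 32.5 and 32.2 FPKM) shared that order, while the invertase INV4 (0.244, 0.638 and 0 FPKM) was lowest in replicate 3. The other pollen wall genes listed at stage 11 did not share one order. CYP703A3 was highest in nup1 replicate 1, at 7.75, 1.64 and 2.37 FPKM in nup1 replicates 1 to 3. TKPR1 was lowest there, at 1.79, 2.52 and 3.47 FPKM. CER1 (91.0, 107 and 42.6 FPKM) and ABCG26 (13.4, 15.4 and 12.2 FPKM) were highest in replicate 2. The part of the make-up of nup1 replicate 1 in the OsC6 result was not tested.

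**Figure D2:**
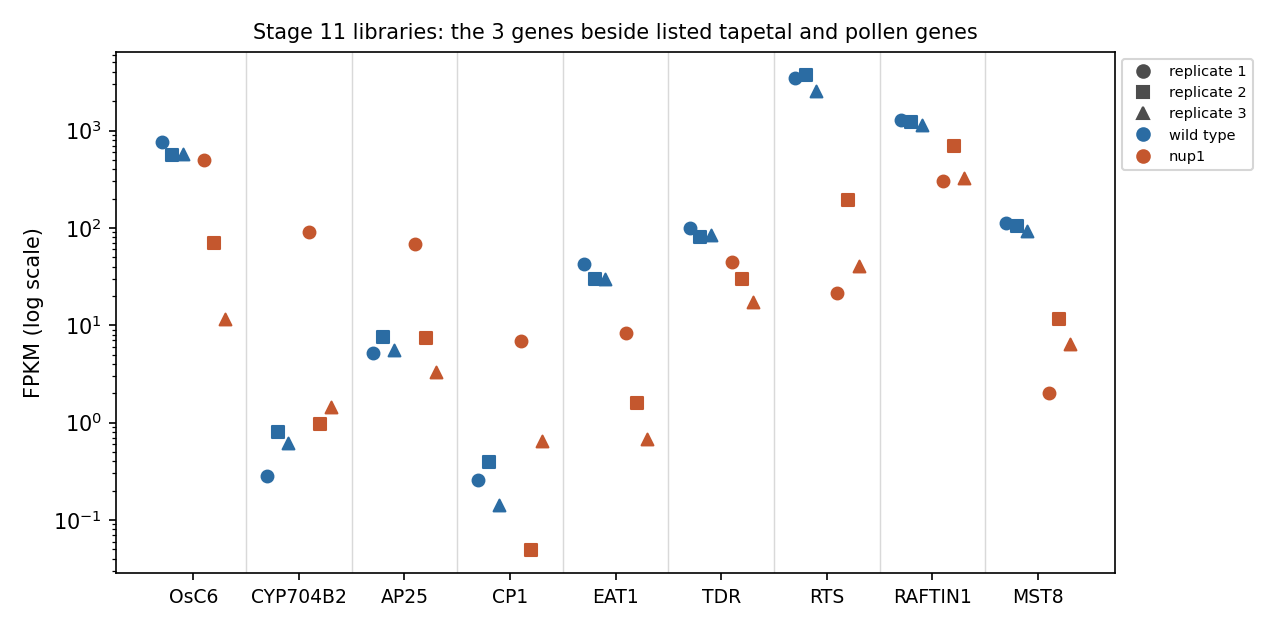
FPKM (log axis) of the 3 genes and 6 other listed genes in the stage 11 libraries, wild type in blue and nup1 in orange, with the replicate number as the symbol. Nup1 replicate 1 is the highest nup1 library for OsC6 (496 FPKM), CYP704B2, AP25, CP1, EAT1 and TDR, and the lowest for RTS (21.6 FPKM), RAFTIN1 (306 FPKM) and MST8.

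Whether the nup1 effect differed between the stages was tested as the difference of the 2 changes, stage 11 minus stage 10. Any factor common to a table drops out of it, apart from the added 1 FPKM, which matters at low values. With limma, 0 of the 3 genes passed at an adjusted p under 0.01, against 21.4% of the 1436 genes fitted, and 1, RTS, had an unadjusted p under 0.05. For RTS the difference was 3.27 ± 1.31 (95% interval 0.43 to 6.11, adjusted p = 0.0805), and it passed without nup1 stage 10 replicate 2 (4.46, adjusted p = 0.00561). For RAFTIN1 it was 0.996 ± 0.473 (95% interval -0.03 to 2.02, adjusted p = 0.146). For OsC6 it was 0.09 ± 1.28 (95% interval -2.68 to 2.87, adjusted p = 0.974), an interval that allows a change in either direction.

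**Figure D3:**
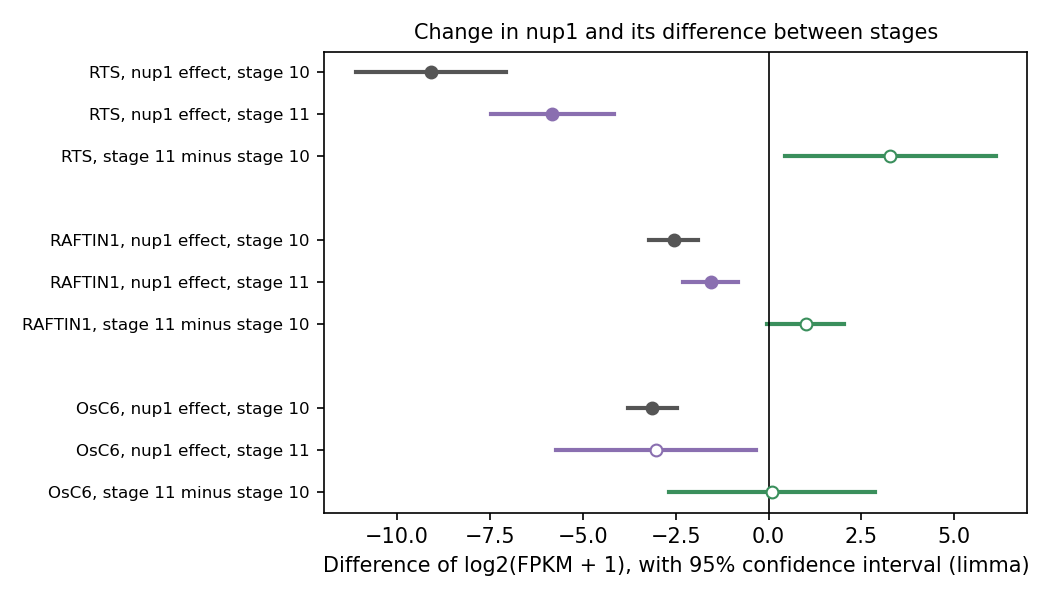
Change of each gene in nup1 at stages 10 and 11 and the difference between the 2 changes, as differences of log2(FPKM + 1) with 95% confidence intervals from limma. Filled points passed the threshold and open points did not: 5 of the 6 changes in nup1 passed, and none of the 3 differences between stages did. Of all genes fitted, 33.1% passed as lower at stage 10, 46.0% as lower at stage 11 and 21.4% for the difference.

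The levels at the 2 stages can only be set side by side, since no label says that the tables were normalized together. As a reference, the median difference of log2(FPKM + 1), stage 11 minus stage 10, over the 1450 genes in both tables was 0.0034 in wild type and -0.17 in nup1. Wild-type OsC6 was 11.1 times as high at stage 10 as at stage 11, with no overlap. Wild-type RAFTIN1 was 1.83 times as high at stage 10, also with no overlap. For wild-type RTS that ratio was 1.41, and the libraries of the stages overlapped. In nup1, mean OsC6 was 4.19 times as high at stage 10 as at stage 11, with no overlap. In nup1, RTS at stage 11 averaged 5.59 times its stage 10 level, and RAFTIN1 1.18 times, both with overlapping libraries. The share of the 1450 genes without overlap between the stages was not counted, so a lack of overlap is only a description.

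The order of the 3 genes by FPKM differed among the groups. In wild type at stage 10 it was OsC6, RTS, RAFTIN1, and the OsC6 and RTS libraries overlapped. In wild type at stage 11 it was RTS, RAFTIN1, OsC6, with no overlap. In nup1 at stage 10 it was OsC6, RAFTIN1, RTS, with no overlap. In nup1 at stage 11 it was RAFTIN1, OsC6, RTS by mean, but the OsC6 libraries overlapped those of both other genes.

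In a ratio of 2 genes within a library the scaling of the library cancels, apart from the added 1 FPKM. Such ratios were compared for 3 pairs at 2 stages with a two-sided exact permutation test. With 3 libraries against 3 the smallest p that it can give is 0.1. At stage 10 the ratio of RTS to OsC6, each as FPKM + 1, was 0.381, 0.930 and 0.646 in wild type and 0.00602, 0.0442 and 0.00358 in nup1. The ratio of RTS to RAFTIN1 was 1.18, 2.58 and 2.39 in wild type and 0.0149, 0.0965 and 0.00647 in nup1. In both pairs the groups did not overlap, so RTS was lower in nup1 relative to each of the other genes as well. The ratio of OsC6 to RAFTIN1 was 3.09, 2.78 and 3.70 in wild type and 2.47, 2.18 and 1.81 in nup1, a difference of -0.57 in mean log2 against -5.96 and -6.53 for the pairs with RTS. Each of these comparisons gave the smallest p (exact permutation p = 0.1, adjusted p = 0.12 over the 6).

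At stage 11 the ratio of RTS to RAFTIN1 was 2.66, 3.05 and 2.20 in wild type and 0.0733, 0.277 and 0.127 in nup1. The groups were again apart, at the smallest p (exact permutation p = 0.1, adjusted p = 0.12). The ratio of RTS to OsC6 was 4.50, 6.65 and 4.45 in wild type and 0.0454, 2.73 and 3.30 in nup1, so replicate 1 of nup1 lay far from the other libraries. That pair also gave the smallest p, while its mean log2 difference of -2.78 became -0.77 without nup1 replicate 1. The ratio of OsC6 to RAFTIN1 was 0.592, 0.459 and 0.495 in wild type and 1.62, 0.102 and 0.0385 in nup1. There the nup1 libraries lay on both sides of wild type (exact permutation p = 0.4).

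**Figure D4:**
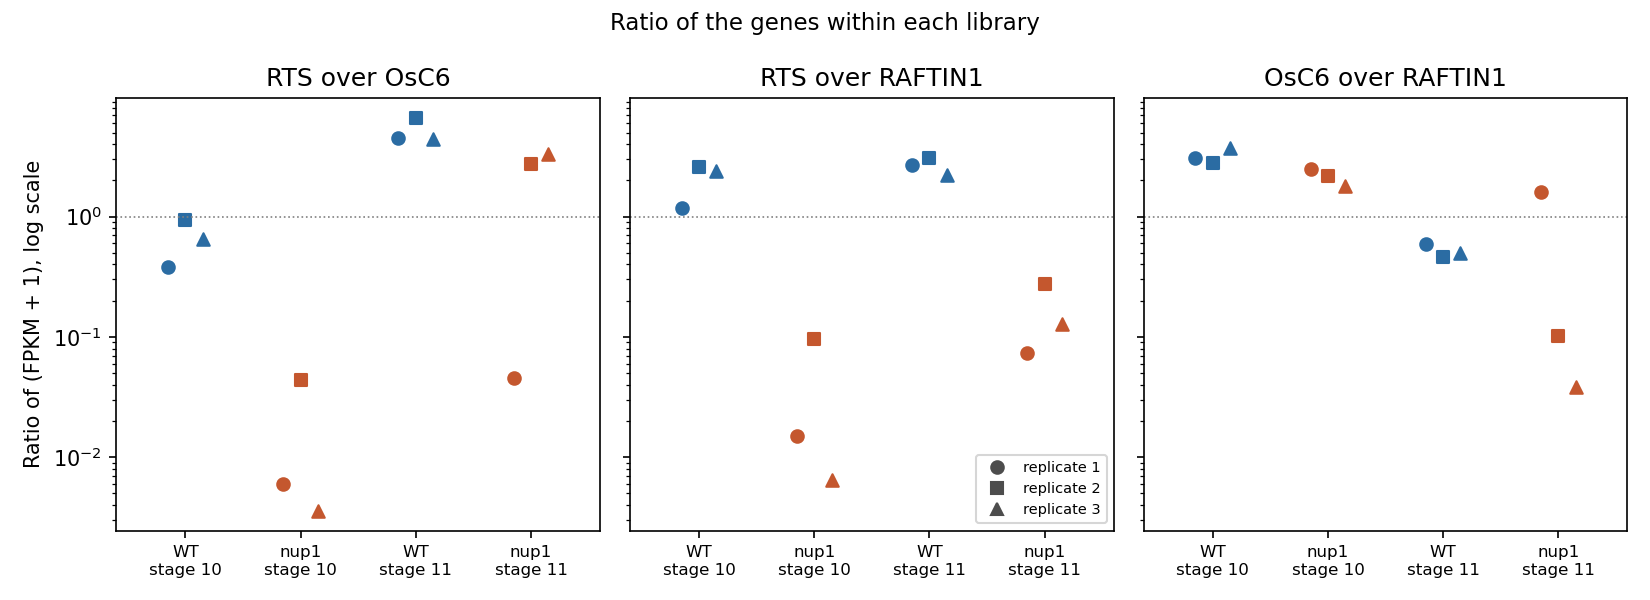
Ratio of (FPKM + 1) of 2 genes within each library (log axis), for 3 pairs of genes, with the replicate number as the symbol and a dotted line at equal levels. RTS is low against RAFTIN1 in every nup1 library, from 0.00647 to 0.277, while OsC6 against RAFTIN1 at stage 11 runs from 0.0385 to 1.62 in nup1.

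The likeness of other genes to each of the 3 was measured as Pearson's r of log2(FPKM + 1) over the 12 libraries, with each stage's mean subtracted. It was computed for 733 other genes listed at both stages with 10 FPKM or more in the higher genotype. All of these had been called different between the genotypes, so r includes the gap between the genotypes. RTS and RAFTIN1 had an r of 0.974 with each other (Spearman's rho 0.979). OsC6 had an r of 0.748 with RTS (rho 0.783) and 0.754 with RAFTIN1 (rho 0.818), and it ranked 356 of 733 in likeness to RTS and 344 of 733 in likeness to RAFTIN1.

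The genes most like RTS were MST8 (LOC_Os01g38670, a monosaccharide transporter that supplies sugar to pollen, r = 0.992), LOC_Os02g04210 (r = 0.990) and LOC_Os05g35690 (r = 0.989). At stage 10 the mean of LOC_Os02g04210 was 832 ± 582 FPKM in wild type against 2.81 ± 4.27 in the mutant, and that of LOC_Os05g35690 was 926 ± 459 against 2.78 ± 2.93. Both passed as lower at both stages, as did 33.1% of the genes fitted at stage 10 and 46.0% at stage 11. The genes most like RAFTIN1 were LOC_Os03g50490 (r = 0.989), LOC_Os01g12900 (r = 0.984) and LOC_Os12g03370 (r = 0.983), which changed by -1.52, -1.84 and -2.37 at stage 10 on the log2 scale. Those most like OsC6 were LOC_Os06g40320 (r = 0.972), LOC_Os05g13650 (r = 0.953) and LOC_Os01g67680 (r = 0.951), which changed by -2.39, -2.61 and -3.03 at stage 10. Each set was picked for its likeness in these same libraries, so the falls of its genes are not a separate result. These sets also depend on single libraries. For OsC6 none of the 3 was among its 3 most like without nup1 stage 11 replicate 1 or 3, and for RAFTIN1 none was without nup1 stage 11 replicate 2. With Spearman's rho in place of r, 0 of the 3 were kept for OsC6, 0 for RAFTIN1 and 2 for RTS. Of the 3 for RTS, 1 was kept without nup1 stage 10 replicate 2 or nup1 stage 11 replicate 1.

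Other genes of the tapetum and pollen wall, taken from lists by locus, did not share one direction at stage 10. Of 17 other pollen wall and cuticle genes 14 were listed, 11 as higher in nup1 and 3 as lower. Past the threshold 10 rose and 1 fell, where 39.8% of the genes fitted passed as higher. Their median change was 2.62, against 0.85 over all genes fitted. The largest rises were those of the polyketide synthase PKS2 (7.27), the oxidoreductase NP1 (5.54) and the reductase TKPR1 (4.35), all of sporopollenin synthesis or exine formation. The gene that fell was CER1, of alkane synthesis (-1.04). All 3 genes of the tapetal cell death list rose, where 39.8% of the genes fitted passed as higher. They were the aspartic proteases AP37 (6.21) and AP25 (2.22) and the cysteine protease CP1 (2.86). Of 10 tapetum regulators 2 were listed, and the PHD-finger protein PTC1 rose (3.88). With wild-type replicate 1 left out CER1 no longer passed (adjusted p = 0.0231), nor did it with any 1 nup1 replicate left out. AP25 no longer passed without nup1 replicate 2 or 3 (highest adjusted p = 0.0126). TDR, which is known to bind the OsC6 promoter, is not in the stage 10 table and was not analysed there.

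At stage 11 the table held 5 of the 17 pollen wall genes, 4 of them lower in nup1. The 1 listed as higher, CYP704B2, did not pass (adjusted p = 0.133), where 26.3% of the genes fitted passed as higher. Past the threshold 3 of the 5 fell, where 46.0% of the genes fitted passed as lower. They were the transporter ABCG26 (-2.57), CER1 (-1.78) and TKPR1 (-1.16). TKPR1 no longer passed with wild-type replicate 2 or 3 or nup1 replicate 1 or 2 left out (highest adjusted p = 0.0191). The median change of the 5 was -1.47, against -0.98 over all genes fitted. Of 10 tapetum regulators 4 were listed, and all 4 fell, where 46.0% of the genes fitted passed as lower, with a median change of -2.40. Among them EAT1 changed by -3.35, the ligand TDL1A by -3.22 and TDR by -1.58, TDR from 87.9 ± 9.7 to 30.7 ± 13.7 FPKM. The bHLH factor TIP2 changed by -1.01 and no longer passed without any 1 wild-type replicate or nup1 replicate 3 (highest adjusted p = 0.0172), and scaling to ACT1 turned it to 0.043. Scaling to ACT1 ended the calls of CER1, TKPR1, EAT1 (adjusted p = 0.0245) and TDR (adjusted p = 0.549). The 2 listed cell death genes, AP25 and CP1, did not pass.

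Genes of pollen and its sugar supply were lower in nup1 beside the 3 tapetal genes. Of 5 such genes 3 were listed at each stage, and all fell, where 33.1% of the genes fitted passed as lower at stage 10 and 46.0% at stage 11. At stage 10 these were MST8 (-6.43), the invertase INV4 (-3.44) and the MYB factor CSA (-1.55), with a summed level of 155 to 424 FPKM in wild type and 14.9 to 25.5 FPKM in nup1. The stage 10 change of INV4 was -2.27 without wild-type replicate 2, and its call ended without any 1 of the nup1 replicates (highest adjusted p = 0.0177). At stage 11 they were INV4 (-7.98), MST8 (-3.99) and the hexokinase HXK5 (-2.39), with 552 to 616 FPKM in wild type and 31.2 to 44.8 in nup1, where INV4 was listed at 0 in replicate 3. Of 7 meiosis genes 1 was listed at stage 10 and 4 at stage 11. At stage 11 MEL1 (-2.37) and PAIR2 (-1.13) fell, where 46.0% of the genes fitted passed as lower. PAIR2 did not pass with wild-type replicate 1 or 3 or nup1 replicate 3 left out. DMC1A (0.84, adjusted p = 0.00489) and ZEP1 (0.54, adjusted p = 0.0202) were listed as higher without passing. The summed meiosis level at stage 11 was 15.6 to 19.6 FPKM in wild type and 6.74 to 8.90 in nup1. Of 4 photosynthesis genes 3 were listed at each stage. At stage 10 the light-harvesting gene LHCB (1.28) rose and 1 copy of the Rubisco small subunit gene RBCS, LOC_Os12g19381, fell (-1.39). Of the genes fitted there, 39.8% passed as higher and 33.1% as lower. The RBCS copy LOC_Os12g19470 was also lower without passing (-0.99, adjusted p = 0.0159). At stage 11 LOC_Os12g19381 fell again (-1.09), where 46.0% of the genes fitted passed as lower, and scaling to ACT1 turned it to 0.11. The copies LOC_Os12g17600 (-1.04, adjusted p = 0.0147) and LOC_Os12g19470 (-1.11, adjusted p = 0.0164) were lower by similar amounts without passing. LHCB no longer passed without wild-type replicate 1 or 3 or nup1 replicate 1 or 3. The call of LOC_Os12g19381 ended at stage 10 without nup1 replicate 2 or 3. It ended at stage 11 without wild-type replicate 2 or 3 or nup1 replicate 1 or 2. The RBCS copies are alike in sequence, so reads may be split among them. The listed photosynthesis genes differed between the stages, LHCB being listed only at stage 10 and LOC_Os12g17600 only at stage 11. Their summed level was 205 to 367 FPKM in wild type and 265 to 342 in nup1 at stage 10. At stage 11 it was 701 to 1324 and 407 to 608, so the sums of the stages do not compare. Whole anthers do not show which cells held these transcripts, and the tapetum may be among them. The part of the make-up of the anthers in the falls of RTS, RAFTIN1 and OsC6 was not tested.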

How the data were processed

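Per the series design text and the labels, poly(A) RNA libraries (NEBNext Ultra) were sequenced, and the authors trimmed the reads, mapped them with HISAT2 to the MSU rice genome, release 7.0, and computed FPKM and differential expression with Cufflinks. No source used here gives the tool versions. The deposited values are FPKM per library, in 1 table per stage, which hold called genes only, so adjustment runs over called genes alone. No raw read numbers were used. Low FPKM values of library pairs fell on steps of whole reads in 15.6% to 48.7% of genes at the best shift, too few to recover reads, so depth is unknown.

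Genes averaging at least 1 FPKM were compared as log2(FPKM + 1) with limma 3.58.1 (R 4.3.3, trended variance), and p-values were adjusted by Benjamini-Hochberg. The code was tested on simulated data. The limma p-values measure the spread between 3 replicates per group, and the labels give no batch or date. The members, gene lists and tests were chosen with earlier results of these data known. Named genes were the 3 members, the 3 genes most like each, TDR, EAT1, TIP2, GAMYB, UDT1 and PTC1 where listed, and up to 3 passing members of each list with the largest change. List symbols were entered from recall: 27 of 52 were found on the same chromosome in the RefSeq table (ASM3414082v1), 24 were not in it, and 1, on another chromosome, was dropped. Lists of BURP-domain and lipid transfer genes had been planned but not applied, for want of gene descriptions. No sequences were used.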

Additional observations from a re-analysis of the deposited data

How the results depend on the processing

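The falls of RTS at both stages and of OsC6 and RAFTIN1 at stage 10 kept their direction and passed under every alternative run. Leaving out single libraries gave changes of -10.28 to -8.25 for RTS, -3.23 to -3.02 for OsC6 and -2.72 to -2.44 for RAFTIN1 at stage 10, and -6.70 to -5.15 for RTS at stage 11. At stage 11 it gave -1.94 to -1.35 for RAFTIN1 and -4.38 to -1.73 for OsC6. The RAFTIN1 call at stage 11 also ended at -1.12 with median centring (adjusted p = 0.0147), at -0.67 with quantile normalization (adjusted p = 0.0837) and at -0.35 with ACT1 scaling (adjusted p = 0.439), the last added after seeing the data. Median centring shifted every change by -0.20 at stage 10 and by 0.44 at stage 11.

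The difference between stages ran from 2.38 to 4.46 for RTS, 0.62 to 1.21 for RAFTIN1 and -1.26 to 1.39 for OsC6 with 1 library left out. Over the other settings, pseudocounts among them, it ran from 2.20 to 3.59 for RTS, 0.99 to 1.78 for RAFTIN1 and 0.05 to 0.42 for OsC6. It passed in none of those. The sign for OsC6 turned without nup1 stage 10 replicate 3 or nup1 stage 11 replicate 1. The change of AP25 at stage 11, which did not pass, ran from -0.24, without nup1 replicate 1, to 1.78. Other named genes that no longer passed were INV4 (-1.72) and LOC_Os12g03370 (-0.91) at stage 10 and TIP2, TKPR1, MEL1 and PAIR2 at stage 11 with a pseudocount of 10 FPKM, CER1 at stage 10 (-0.96) with quantile normalization, TIP2, TKPR1, PAIR2 and LOC_Os12g19381 at stage 11 with median centring or quantile normalization, and PAIR2 at stage 11 with ACT1 scaling (-0.19), which turned TIP2 to 0.043 and LOC_Os12g19381 to 0.11. The causes were not tested.

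With the replicate number as a block, no call on the 3 genes changed (OsC6 at stage 11, -3.03, adjusted p = 0.0146), and among the other named genes PAIR2 (adjusted p = 0.0128) and TIP2 (adjusted p = 0.0102) at stage 11 no longer passed. With the block 2499 and 3472 genes passed at stages 10 and 11, against 2449 and 3610 without it. For each library the deviations from its group's mean were correlated across genes with those of the libraries of the other genotype. Same-numbered libraries gave an r of 0.04 to 0.25 at stage 10 and -0.23 to 0.08 at stage 11. The numbers thus do not show a pairing, and not every library's deviations correlated best with those of its own number.

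With a pseudocount of 10 FPKM, 888 genes passed at stage 10 (431 higher, 457 lower) and 1456 at stage 11 (473 higher, 983 lower), against 1338 higher and 1111 lower, and 1315 higher and 2295 lower, as reported. With median centring 962 genes were higher and 1319 lower at stage 10. Genes lower at stage 11 numbered 1254 with median centring (1880 higher), 1216 with quantile normalization (1899 higher) and 494 of 2395 with ACT1 scaling. Genes with a more positive effect at stage 11 numbered 125 under quantile normalization, against 75. Among the ratios no direction changed. Depth is unknown, so the counting error behind RTS values of a few FPKM in nup1 is too.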
